A study of Mus musculus with 12 samples.

Results

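The genes described here are 7 chemokine receptors, Ccr1, Ccr2, Ccr3, Ccr7, Ccrl2, Cxcr4 and Cx3cr1, chosen by symbol from the 23997 gene names listed for each library. RNA-seq measured them in bone marrow-derived macrophages (BMDMs) of WT and Pim1-/- mice, left untreated or exposed for 4 h to LPS at 100 ng/ml, and each of the 4 groups has 3 of the 12 libraries. The marrow came from male C57BL/6 mice aged 8 to 10 weeks, and every culture was grown with recombinant human M-CSF before treatment. Pim1-/- mice lack exons I–V of Pim1, removed by CRISPR/Cas9 editing, with no cell type-specific driver named, so the deletion is not limited to macrophages. The labels number the libraries of a group and name no mouse or culture for them, so the p-values measure only the spread between these libraries, which may be technical.

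Chemokine receptors are G protein-coupled receptors in the cell membrane that read gradients of small secreted chemokines and turn them into directed movement. Macrophages and their monocyte precursors use different receptors at different stages. Ccr2 brings monocytes out of the marrow, Cx3cr1 binds the membrane-anchored chemokine Cx3cl1, and Cxcr4 holds cells in the marrow through Cxcl12. Ccr1 and Ccr3 bind inflammatory CC chemokines, Ccr7 guides mature dendritic cells and T cells to lymph nodes, and Ccrl2 is an atypical member that binds chemerin without signalling. LPS, a bacterial cell wall lipid, is sensed by TLR4, a receptor whose signalling includes the transcription factors NF-kappaB, AP-1 and the interferon regulatory factors.

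In RefSeq annotation of GRCm38.p6, 5 of the 7 genes lie on chromosome 9. Ccrl2 spans chr9:111054834-111057518 and Cx3cr1 chr9:120048683-120068296. Ccr1, at chr9:123962126-123968692, Ccr3, at chr9:124017825-124031692, and Ccr2, at chr9:124101918-124109140, are close neighbours, with 49 kb between the first pair and 70 kb between the second. Ccr7 is at chr11:99144199-99155077 and Cxcr4 at chr1:128588199-128592299. Stretches of 75 bases shared with the transcripts of another gene made up 1.16% of those in Ccr2 and 0% in the other 6 genes, so reads of these receptors were nearly all distinguishable by sequence. In the GENCODE M21 annotation the Cx3cr1 gene is longer and overlaps 9 other genes, 3 of them on the same strand. Its value would be less certain than the others if computed on that span, but the annotation used for the values is not given.

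The DNA before a transcript start of Ccrl2, Cxcr4 and Ccr3 is shown because Ccrl2 had the largest rise with LPS and Cxcr4 the largest fall, and Ccr3 had matches to 2 motifs of the TLR4 pathway. Windows from 250 bases before to 50 bases after a RefSeq start, in GRCm38.p6, were at hand for 6 of the 7 genes, with 3 windows for Ccrl2, and none for Ccr7. The letter patterns were searched on both strands, GGNNTTTCC for NF-kappaB, GAAANNGAA for the core of the interferon-stimulated response element (ISRE) and TGANTCA for AP-1. The start used is the first base of the RefSeq span for Ccrl2, in the window shown, and for Cxcr4, but for Ccr3 it lies 4146 bases inside the span given above, so the stretch shown is not upstream of the whole gene. The 250 bases before the start used are printed 5′ to 3′ on the strand of the gene, and capitals mark the matches.
Ccrl2, chr9:111057519-111057768, minus strand: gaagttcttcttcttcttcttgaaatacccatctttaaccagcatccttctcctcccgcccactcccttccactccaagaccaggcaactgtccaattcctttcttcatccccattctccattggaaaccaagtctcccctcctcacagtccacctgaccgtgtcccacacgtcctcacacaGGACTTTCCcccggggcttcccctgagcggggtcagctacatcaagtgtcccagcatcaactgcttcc
Ccr3, chr9:124021721-124021970, plus strand: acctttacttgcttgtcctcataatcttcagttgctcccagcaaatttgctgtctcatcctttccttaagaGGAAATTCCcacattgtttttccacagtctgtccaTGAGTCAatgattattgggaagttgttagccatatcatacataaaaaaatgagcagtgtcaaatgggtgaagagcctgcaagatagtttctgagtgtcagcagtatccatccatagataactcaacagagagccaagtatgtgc
Cxcr4, chr1:128592300-128592549, minus strand: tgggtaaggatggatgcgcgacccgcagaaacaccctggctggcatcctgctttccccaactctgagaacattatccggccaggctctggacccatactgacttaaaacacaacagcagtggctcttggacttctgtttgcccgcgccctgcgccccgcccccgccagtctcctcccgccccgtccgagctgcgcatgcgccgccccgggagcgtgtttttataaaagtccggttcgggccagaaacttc
The match before Ccrl2 was to the NF-kappaB pattern, began 68 bases before the start and was found in 1 of its 3 windows. Ccr3 had an NF-kappaB match beginning 179 bases and an AP-1 match beginning 144 bases before the start used. Ccr2 had an ISRE core match beginning 86 bases before a start that lies 265 bases inside its RefSeq span, so this match is within the gene, and its sequence is not shown. None of the matches overlapped. The windows of Cxcr4, Cx3cr1 and Ccr1 held none of these letters. Over all 32851 such windows, 5.82% held the NF-kappaB pattern, 8.56% the ISRE core and 7.81% the AP-1 pattern. Matches of this kind are thus found before or at the starts of many genes, and are a description of the sequence, not of binding. The Cxcr4 window stood apart in base composition, with 20 CpG dinucleotides where the median window has 7, and the Ccr1, Ccr2 and Ccr3 windows held 1 each.

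Levels are given in FPKM, a unit that divides the fragments of a gene by transcript length and library size and so allows levels of different genes to be compared. Summed FPKM was 452511 to 489710 in untreated and 713307 to 849323 in LPS-treated libraries. All 8 macrophage markers were at 1 FPKM or more in every group. Their summed level was 27853 to 29901 FPKM in untreated WT and 14378 to 15297 FPKM in untreated Pim1-/- libraries, and Lyz2 made up most of it. After LPS the same sum was 30804 to 31298 FPKM in WT and 15921 to 17784 FPKM in Pim1-/- BMDMs. In untreated cells all 8 group means were lower in Pim1-/- BMDMs, but to unequal extents. Cd14 was at 167 FPKM in untreated WT and 160 FPKM in untreated Pim1-/- BMDMs, Cd68 at 1161 and 956 FPKM, and Csf1r at 764 and 254 FPKM. Stromal cell markers were lower in Pim1-/- libraries too, with sums of 2.63 to 4.57 FPKM in WT and 0.790 to 1.66 FPKM in Pim1-/- libraries. Neutrophil markers summed to 1.57 to 1.87 FPKM in untreated WT and to 3.23 to 4.21 FPKM in untreated Pim1-/- libraries. After LPS the neutrophil sum was 6.04 to 8.22 FPKM in WT and 3.59 to 6.13 FPKM in Pim1-/- libraries. The erythroid, mast cell and basophil, T and NK cell, and B cell lists each summed to at most 0.586 FPKM in any library. The part of these markers in the receptor differences between genotypes was not tested. In bulk RNA, fewer cells of a type and less RNA per cell cannot be told apart.

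Pim1 itself was measured first as a check of the labels. Untreated WT libraries had 24.96, 21.53 and 22.30 FPKM and untreated Pim1-/- libraries 8.70, 8.00 and 9.51 FPKM, or 38.1% of the WT mean. After LPS the values were 665.0, 630.2 and 640.9 FPKM in WT and 215.8, 205.0 and 235.8 FPKM in Pim1-/- BMDMs, or 33.9% of the WT mean. The values are for the gene as a whole and were not split by exon.

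LPS exchanged the receptor that dominated the set. In untreated WT BMDMs Cxcr4 held 83.0% of the summed FPKM of the 7 receptors, which was 167.0 ± 1.17 FPKM (SD, n = 3), and in untreated Pim1-/- BMDMs it held 75.9% of 121.2 ± 5.39 FPKM. After LPS Ccrl2 held 98.4% of 416.4 ± 6.24 FPKM in WT and 97.8% of 490.1 ± 7.14 FPKM in Pim1-/- BMDMs. In these treated cells, Cxcr4 was down to 0.335% and 0.987% of the sum.

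**Figure D1:**
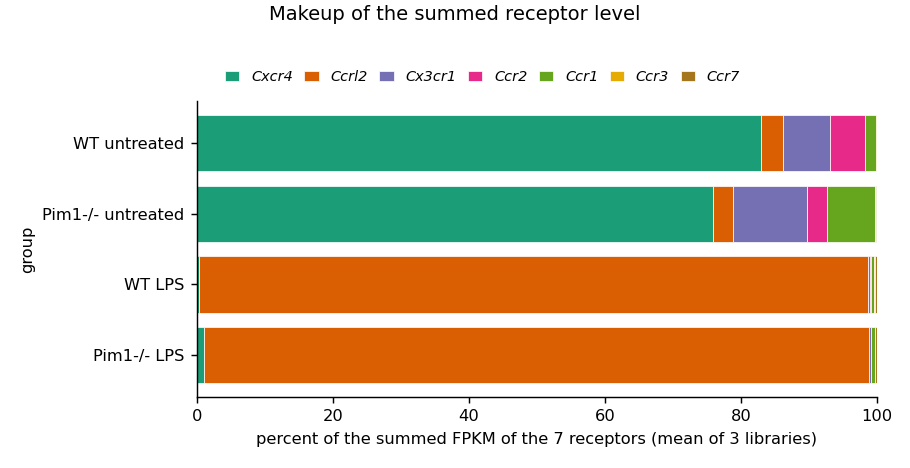
Share of each receptor in the summed FPKM of the 7 receptors, in percent on the x axis, as the mean of 3 libraries for each of the 4 groups on the y axis. Cxcr4 fills 83.0% and 75.9% of the untreated bars, and Ccrl2 fills 98.4% and 97.8% of the LPS bars.

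The comparisons were fitted on log2(FPKM + 1) with limma over the 10581 genes that reached 1 FPKM in at least 3 libraries, and p-values were adjusted over all of them by the Benjamini-Hochberg method. This scale understates the fold change of genes with low values. Here called stands for a difference over 2-fold, up or down, with a p under 0.05 and an adjusted p under 0.1. Ccr1, Ccr2, Ccrl2, Cxcr4 and Cx3cr1 passed the filter on low values. Ccr3 and Ccr7 each reached 1 FPKM in 1 library and were not tested in this fit. With LPS, 4 of the 5 tested receptors were called in WT BMDMs, where 34.8% of all genes tested were called, and 5 of 5 in Pim1-/- BMDMs, where 25% were. Between genotypes 2 of 5 were called in untreated cells, against 7.78% of all genes, and 1 of 5 after LPS, against 8.66%. For 2 of 5 the LPS response differed by genotype, against 6.67% of all genes. An FDR under 0.05 alone was passed by 5 of 5 receptors in every comparison, but also by 74.7% of all genes tested between untreated genotypes, 77.4% between genotypes after LPS, 89.3% for LPS in WT, 84.6% for LPS in Pim1-/- BMDMs and 62.9% for the difference in response. Likewise, the libraries of the groups compared had no overlap for 5 of 5 receptors, which held for 78.4%, 77.5%, 90.4% and 83.8% of all genes tested in the first 4 of these comparisons. These comparisons share their control groups and are not independent of each other.

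**Figure D2:**
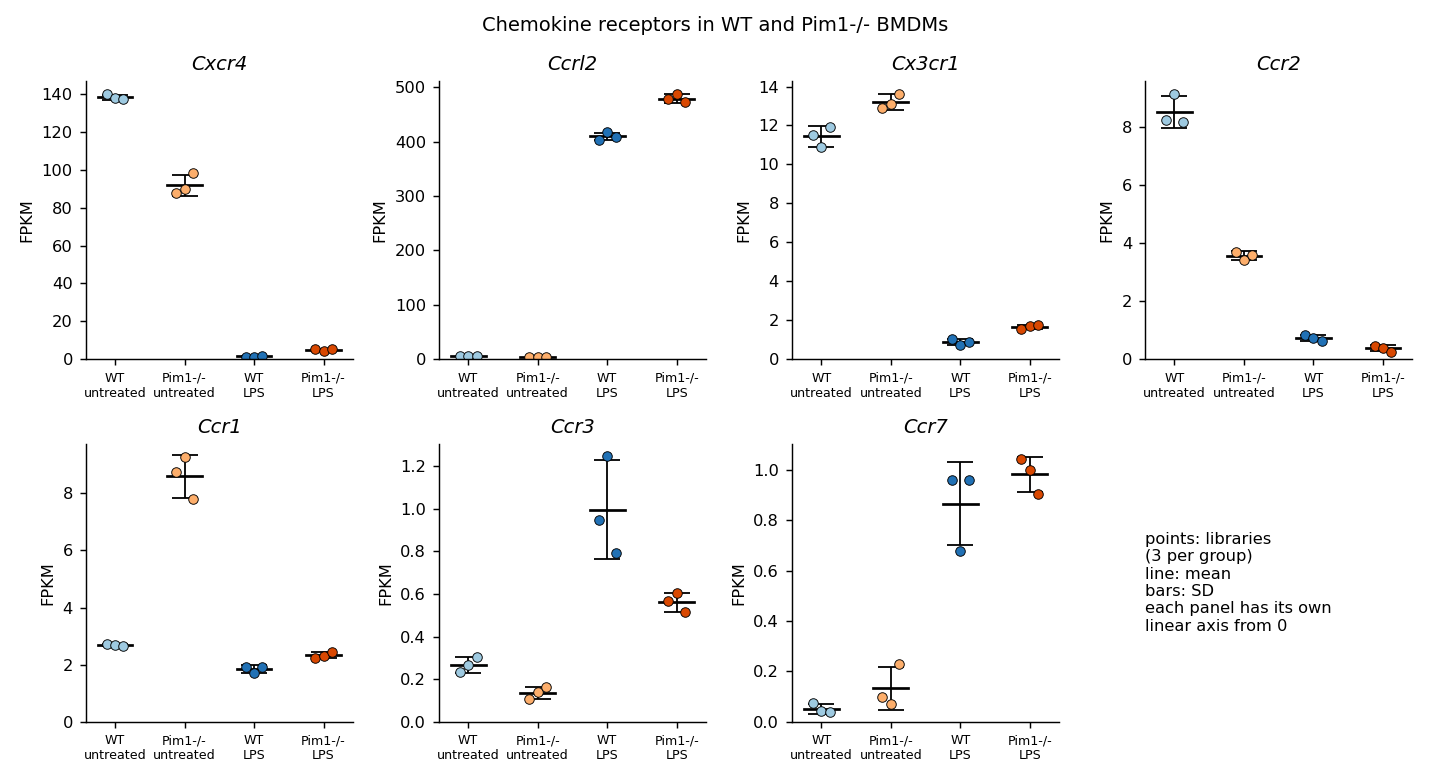
FPKM of each receptor on a linear y axis from 0, by group on the x axis, with a point for each of 3 libraries, a line for the mean and bars for the SD. Cxcr4 is highest in untreated WT cells at 138.5 FPKM, Ccrl2 is highest in LPS-treated Pim1-/- cells at 479.4 FPKM, and Ccr1 stands out in untreated Pim1-/- cells at 8.61 FPKM.

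Cxcr4, the receptor for Cxcl12, was the most abundant of the 7 in untreated cells and had the largest fall with LPS of the 5 tested. Its level in untreated WT libraries was 140.1, 137.9 and 137.7 FPKM, and in untreated Pim1-/- libraries 87.8, 89.8 and 98.3 FPKM. LPS-treated WT libraries had 1.32, 1.13 and 1.73 FPKM, and LPS-treated Pim1-/- libraries 5.28, 4.10 and 5.11 FPKM. No library of any group overlapped with those of another group. The order of the genotypes turned around with treatment, since WT was the higher in untreated cells and Pim1-/- the higher after LPS.

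After LPS, 1.01% of the untreated Cxcr4 level was left in WT and 5.25% in Pim1-/- BMDMs. In the fit this was a log2 fold change of −5.87 (standard error 0.09) in WT and −4.00 (0.09) in Pim1-/- BMDMs, both called. The difference between these responses was 1.87 on the log2 scale (standard error 0.12, adjusted p = 4.8e-09, limma), also called. Between genotypes after LPS, Cxcr4 was higher in Pim1-/- BMDMs by 1.29 on the log2 scale (standard error 0.09, limma adjusted p = 2.1e-09), the only receptor called in that comparison. In untreated cells it was at 66.4% of WT, a log2 fold change of −0.59 with an adjusted p of 1.7e-05, under the fold threshold. With a pseudocount of 0.1 in place of 1 the difference in response was 2.33, and under quantile normalization 1.70, and both were called. Rmnd5b, Mknk2 and Sh2d3c had the patterns most like Cxcr4, with Pearson's r of 0.998 to 0.999 on log2(FPKM + 1) over the 12 libraries, among 173 tested genes with an r over 0.99. This r is a description, since the libraries fall into 4 groups that all genes share.

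Ccrl2, the atypical receptor that presents chemerin, was the only receptor of the 5 tested that rose with LPS. Untreated WT libraries had 5.49, 5.69 and 5.35 FPKM and untreated Pim1-/- libraries 3.63, 3.55 and 3.52 FPKM. With LPS the level was 404.0, 417.0 and 408.1 FPKM in WT and 478.3, 487.5 and 472.4 FPKM in Pim1-/- BMDMs. The 4 groups did not overlap, and Pim1-/- libraries were the lower in untreated cells and the higher after LPS, the same turn of order as in Cxcr4.

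The mean rose 74.4-fold in WT and 134-fold in Pim1-/- BMDMs. On the fitted scale the rises were 5.98 and 6.72 (standard error 0.04 each), both called. Their difference was 0.74 (standard error 0.05, adjusted p = 1.2e-08, limma), a difference larger than the spread between libraries that stayed under 2-fold. The genotypes differed by −0.51 in untreated cells and by 0.23 after LPS, with adjusted p of 6.8e-09 and 4.7e-05, neither of them called. Under quantile normalization the second was 0.43. The rule that takes the genes with the most similar pattern over the 12 libraries named Ccl3 for Ccrl2, with a Pearson r of 0.9996 on log2(FPKM + 1), followed by Parp9 and Gpr126. Since 273 tested genes had an r over 0.99 with Ccrl2 and the 12 libraries fall into 4 groups, this likeness is a description only.

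Cx3cr1, the receptor for Cx3cl1, fell with LPS in both genotypes. Its values were 11.52, 10.89 and 11.94 FPKM in untreated WT and 12.88, 13.09 and 13.64 FPKM in untreated Pim1-/- libraries. After LPS they were 1.03, 0.741 and 0.899 FPKM in WT and 1.53, 1.69 and 1.75 FPKM in Pim1-/- libraries. Pim1-/- libraries lay above the WT libraries of the same treatment without overlap, by small margins.

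The LPS-treated mean was 7.79% of the untreated mean in WT and 12.5% in Pim1-/- BMDMs, with log2 fold changes of −2.72 and −2.42 (standard error 0.06 each), both called. Genotype differences were 0.19 in untreated cells (adjusted p = 0.011) and 0.49 after LPS (adjusted p = 3.0e-06), and neither was called. With a pseudocount of 0.1 the first had a limma adjusted p of 0.062, and with a library left out it reached up to 0.056. The second was 0.83 with a pseudocount of 0.1. The difference in response was 0.30 (standard error 0.09, adjusted p = 0.0075, limma), not called. It was 0.63 with that pseudocount and 0.10 under quantile normalization, where the adjusted p was 0.32. Kcnab2, Gpd1l and Mfsd7b had the patterns most like it, with r from 0.998 to 0.999 over the 12 libraries.

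Ccr2, the receptor for Ccl2 that marks monocytes recruited from marrow, was lower in untreated Pim1-/- than in untreated WT BMDMs and fell with LPS in both. Untreated WT libraries had 8.22, 9.13 and 8.16 FPKM, and untreated Pim1-/- libraries 3.70, 3.39 and 3.58 FPKM. LPS-treated libraries had 0.832, 0.724 and 0.619 FPKM in WT and 0.449, 0.396 and 0.248 FPKM in Pim1-/- BMDMs. The order of the 4 groups was untreated WT, untreated Pim1-/-, LPS-treated WT and LPS-treated Pim1-/-, with no overlap between neighbours.

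In untreated cells Ccr2 was at 41.8% of the WT mean, which was called at −1.06 on the log2 scale (standard error 0.07, limma adjusted p = 1.8e-09). With LPS the fitted change was −2.46 in WT and −1.74 in Pim1-/- BMDMs (standard error 0.07 each), both called, and 8.53% and 10.2% of the untreated means were left. After LPS the genotype difference was −0.34 (adjusted p = 3.4e-04), not called, and it was −0.85 with a pseudocount of 0.1 and −0.65 under quantile normalization. The change with LPS in Pim1-/- BMDMs was −3.00 with the smaller pseudocount. The difference in response of 0.72 (adjusted p = 1.2e-05) was not called either, and it was 0.39 with an adjusted p of 0.12 with that pseudocount. The 4 monocyte markers Ly6c2, Fn1, Chil3 and Plac8 summed to 3.78 to 3.99 FPKM in untreated WT and 4.15 to 5.29 FPKM in untreated Pim1-/- libraries. The members went different ways, since group means in untreated cells were lower in Pim1-/- BMDMs for Fn1 (1.34 against 0.697 FPKM) and Plac8 (1.04 against 0.499 FPKM), as for Ccr2, and higher for Chil3 (1.30 against 2.78 FPKM) and Ly6c2 (0.219 against 0.691 FPKM). After LPS their sum was 6.21 to 6.89 FPKM in WT and 5.88 to 7.10 FPKM in Pim1-/- libraries, and the part of these markers in the Ccr2 values was not tested. Slc5a3, Slc43a2 and Orai3 had the patterns most like Ccr2, each with an r of 0.997 over the 12 libraries.

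Ccr1, a receptor for Ccl3, Ccl5 and related CC chemokines, was highest in untreated Pim1-/- BMDMs, as Cx3cr1 was, but by a wider margin. Its values there were 8.75, 9.28 and 7.79 FPKM, against 2.72, 2.69 and 2.64 FPKM in untreated WT libraries. After LPS they were 1.92, 1.69 and 1.92 FPKM in WT and 2.23, 2.31 and 2.45 FPKM in Pim1-/- libraries. The 4 groups did not overlap, but 3 of them lay within 1.69 to 2.72 FPKM and only untreated Pim1-/- BMDMs stood far apart.

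Between untreated genotypes the mean was 3.21-fold higher in Pim1-/- BMDMs, which was called at 1.38 on the log2 scale (standard error 0.06, limma adjusted p = 1.8e-11). LPS lowered Ccr1 in Pim1-/- BMDMs to 27.1% of its untreated mean, a log2 fold change of −1.53 (standard error 0.06), which was called. In WT BMDMs the log2 fold change was −0.37 (adjusted p = 3.0e-05), not called, and under quantile normalization it was −0.04 with an adjusted p of 0.60. The responses differed by −1.15 (standard error 0.09, adjusted p = 2.3e-08), which was called. After LPS the genotypes differed by 0.23 (adjusted p = 0.0032), which was not, and by 0.10 under quantile normalization, with an adjusted p of 0.21. The genes with the most similar pattern were Rad51c, Fbxo5 and Wdhd1, with r of 0.998, 0.995 and 0.995 over the 12 libraries. All 3 are known for roles in DNA repair, replication or the cell cycle, and Fbxo5 was at 1.42 FPKM in untreated WT and 16.5 FPKM in untreated Pim1-/- BMDMs. They were among 11 tested genes with an r over 0.99 with Ccr1. As the 12 libraries fall into 4 groups, this likeness is a description only, and a link of these genes to Ccr1 was not tested.

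Ccr1, Ccr3 and Ccr2 lie in this order on chromosome 9, and in untreated cells they did not move in the same direction between genotypes. Ccr1 was the higher in Pim1-/- BMDMs, whereas Ccr2 and, at low values, Ccr3 were the higher in WT. With LPS Ccr1 and Ccr2 went down and Ccr3 went up in both genotypes, with the WT change of Ccr1 under the fold threshold and Ccr3 outside the fit.

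**Figure D3:**
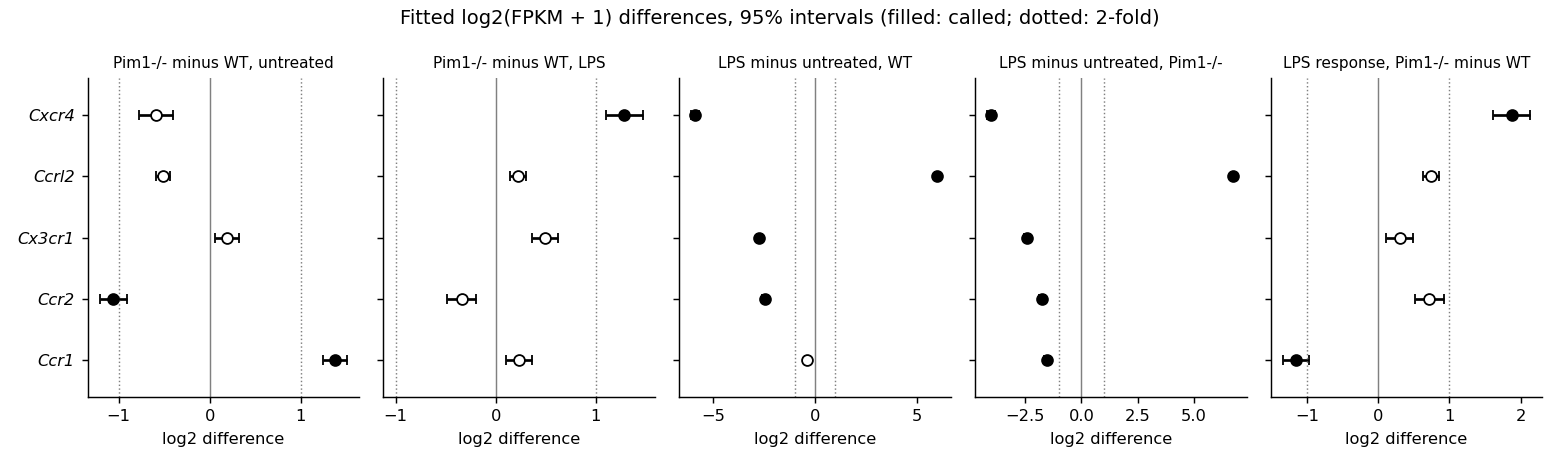
Fitted differences in log2(FPKM + 1) on the x axis for the 5 tested receptors on the y axis, a panel for each comparison with its own x range, points with 95% intervals from limma, filled where called and with dotted lines at 2-fold. Cxcr4 at 1.87 and Ccr1 at −1.15 are the filled points in the panel on the difference in LPS response.

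Ccr3, the receptor for eotaxins known from eosinophils, was detected at low levels and was higher after LPS. Its values were 0.232, 0.265 and 0.303 FPKM in untreated WT and 0.106, 0.138 and 0.162 FPKM in untreated Pim1-/- libraries. After LPS they were 0.945, 1.25 and 0.791 FPKM in WT and 0.566, 0.604 and 0.513 FPKM in Pim1-/- libraries. The estimated number of fragments behind these values was 15 to 41 per untreated library and 45 to 85 per LPS-treated library. WT was above Pim1-/- and LPS-treated above untreated without overlap, and the exact permutation test gave p = 0.1 for each, two-sided, the smallest value that 3 against 3 libraries allow. LPS-treated means were 3.73-fold the untreated mean in WT and 4.14-fold in Pim1-/- BMDMs. In limma without the filter, the log2 fold changes with LPS were 0.65 and 0.46, and between genotypes −0.16 in untreated cells (adjusted p = 0.070) and −0.35 after LPS (adjusted p = 0.0010), none of them called. The pseudocount of 1 keeps values this low from reaching a 2-fold difference easily, so the lack of a call decides nothing. The 4 eosinophil markers measured, Prg2, Epx, Il5ra and Ear6, summed to at most 0.0691 FPKM in any library, and all 4 were listed at 0 in untreated WT libraries. The part of these markers in the Ccr3 values was not tested.

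Ccr7, known from mature dendritic cells and lymphocytes, was close to the limit of detection in untreated cells. Untreated WT libraries had 0.0743, 0.0417 and 0.0383 FPKM, which correspond to an estimated 5, 3 and 3 fragments. Untreated Pim1-/- libraries had 0.0977, 0.0699 and 0.229 FPKM, or an estimated 8, 5 and 18 fragments. LPS-treated libraries had 0.960, 0.677 and 0.963 FPKM in WT and 1.04, 0.999 and 0.906 FPKM in Pim1-/- BMDMs, on an estimated 27 to 60 fragments. All LPS-treated libraries lay above all untreated ones, whereas the genotypes overlapped in both treatments.

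For Ccr7 the exact permutation test, two-sided, gave p = 0.1 for LPS in each genotype, p = 0.2 between untreated genotypes and p = 0.4 between genotypes after LPS. LPS-treated Ccr7 means were 16.9-fold the untreated mean in WT and 7.43-fold in Pim1-/- BMDMs. In limma without the filter LPS gave log2 fold changes of 0.82 in WT and 0.81 in Pim1-/- BMDMs, and the genotypes differed by 0.10 and 0.09, none of them called. On log2(FPKM + 1), values this low can hardly differ by 2-fold, so the lack of a call decides nothing. Of 6 dendritic cell markers, Itgax, which macrophages also express, was at 3.52 to 4.97 FPKM in the group means and the other 5 were below 1 FPKM. Zbtb46, a transcription factor that defines conventional dendritic cells, was at 0.0498 FPKM in untreated WT, 0.0537 FPKM in untreated Pim1-/-, 0.188 FPKM in LPS-treated WT and 0.241 FPKM in LPS-treated Pim1-/- BMDMs, so it was higher after LPS, as Ccr7 was. Flt3 was also higher after LPS in both genotypes, from 0.0162 to 0.0220 FPKM in WT and from 0.00668 to 0.0162 FPKM in Pim1-/- BMDMs. These Flt3 values are close to the limit of detection. Cd209a, at 0.521 and 0.380 FPKM in WT and 0.603 and 0.134 FPKM in Pim1-/- BMDMs, was lower after LPS in both. Clec9a was lower in both too, and Siglech was lower in WT and higher in Pim1-/- BMDMs. The part of these markers in the Ccr7 values was not tested.

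The other chemokine and chemerin receptors were measured for context. Of 18 listed, 16 stayed below 1 FPKM in every library, 1 of them at 0 throughout, and only Cxcr3, the receptor for the interferon-induced chemokines Cxcl9 and Cxcl10, was tested. Mean Cxcr3 levels were 2.90 ± 0.246 (SD, n = 3) in untreated WT, 2.44 ± 0.284 in untreated Pim1-/-, 1.07 ± 0.059 in LPS-treated WT and 0.972 ± 0.321 FPKM in LPS-treated Pim1-/- BMDMs. The fitted change with LPS was −0.91 for WT and −0.81 for Pim1-/- BMDMs, not called, and between genotypes −0.18 and −0.08 with adjusted p of 0.095 and 0.45. Cmklr1, the signalling receptor for chemerin, was picked after its values were seen. It was at 0.659 to 1.05 FPKM in untreated WT libraries and 0.0094 to 0.0600 FPKM in untreated Pim1-/- libraries, and after LPS at 0.774 to 1.00 FPKM and 0.0298 to 0.0794 FPKM.

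**Figure D4:**
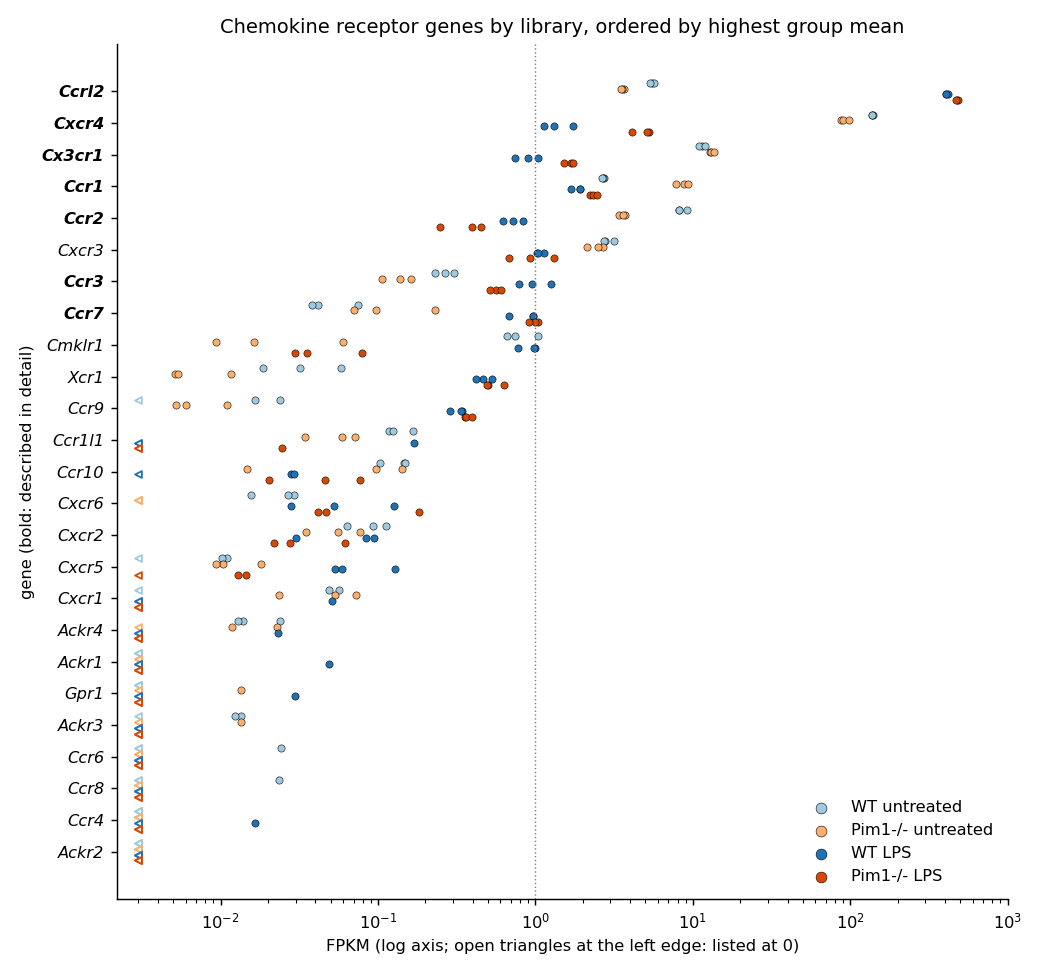
FPKM of 25 chemokine and chemerin receptor genes on a logarithmic x axis, ordered on the y axis by their highest group mean, with a point for each library coloured by group and open triangles for values listed at 0. Ccrl2 and Cxcr4 lead, and apart from the 7 receptors in bold only Cxcr3 and Cmklr1 reach 1 FPKM, the dotted line.

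The known ligands of the 7 receptors were read from a list of 20 genes, of which 12 were tested. With LPS, 10 of the 12 were called higher in each genotype and none lower, where 20.1% of all genes were called higher in WT and 14.6% in Pim1-/- BMDMs, with list medians on the log2 scale of 6.47 (WT) and 6.14 (Pim1-/-) against medians of 0.00 and −0.01 over all genes tested. The ligands of Ccr1 were among them. Ccl3 went from 99.6 to 15504 FPKM in WT and from 79.0 to 18631 FPKM in Pim1-/- BMDMs, and Ccl5 from 3.59 to 13762 FPKM and from 1.27 to 9599 FPKM. Ccl9 reached 2133 FPKM in WT and 1803 FPKM in Pim1-/- BMDMs, and Ccl4, a relative of Ccl3, 10169 and 10128 FPKM. Ccl6 and Mif were the tested ligands that LPS left under the fold threshold, with log2 fold changes of 0.25 and 0.48 in WT and 0.23 and 0.13 in Pim1-/- BMDMs.

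The ligands of Ccr2 split by genotype. Ccl2 was at 4.89 FPKM in untreated WT and 19.8 FPKM in untreated Pim1-/- BMDMs, and at 2058 and 5808 FPKM after LPS, 4.04-fold and 2.82-fold higher in Pim1-/- BMDMs, both called. Ccl7 was also higher in Pim1-/- BMDMs after LPS, at 2450 against 1041 FPKM, while Ccl12 was lower, at 182.2 against 505.8 FPKM, and both were called. After LPS Ccl24, a ligand of Ccr3, had 80.5 FPKM in WT but 2.46 FPKM in Pim1-/- BMDMs, −4.56 on the log2 scale. Ccl8 was at 43.0 and 7.48 FPKM in the same comparison, with −2.37, and both were called. In untreated cells Ccl5 was called lower in Pim1-/- BMDMs, with −1.01. The difference in LPS response was called for Ccl24, Ccl8 and Ccl12, each with a smaller rise on log2(FPKM + 1) in Pim1-/- BMDMs. Untreated means of these ligands were below 1 FPKM in both genotypes, so the size of these rises depends on the pseudocount. Ccl8 went from 0.711 to 43.0 FPKM in WT and from 0.117 to 7.48 FPKM in Pim1-/- BMDMs. As a ratio of means its rise was not smaller in Pim1-/- BMDMs.

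Cx3cl1, the ligand of Cx3cr1, was below 1 FPKM in untreated cells and after LPS at 52.4 FPKM (WT) and 36.9 FPKM (Pim1-/-), so this ligand was higher where its receptor was lower. The other 8 ligands were below 1 FPKM in all libraries. They include Cxcl12 of Cxcr4, with group means of 0.229 to 0.530 FPKM, Ccl19 and the Ccl21 genes of Ccr7, Ccl11 and Ccl28 of Ccr3, and chemerin, Rarres2, with group means of 0.029 to 0.151 FPKM. Of these 8, 3 were listed at 0 in every library.

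**Figure D5:**
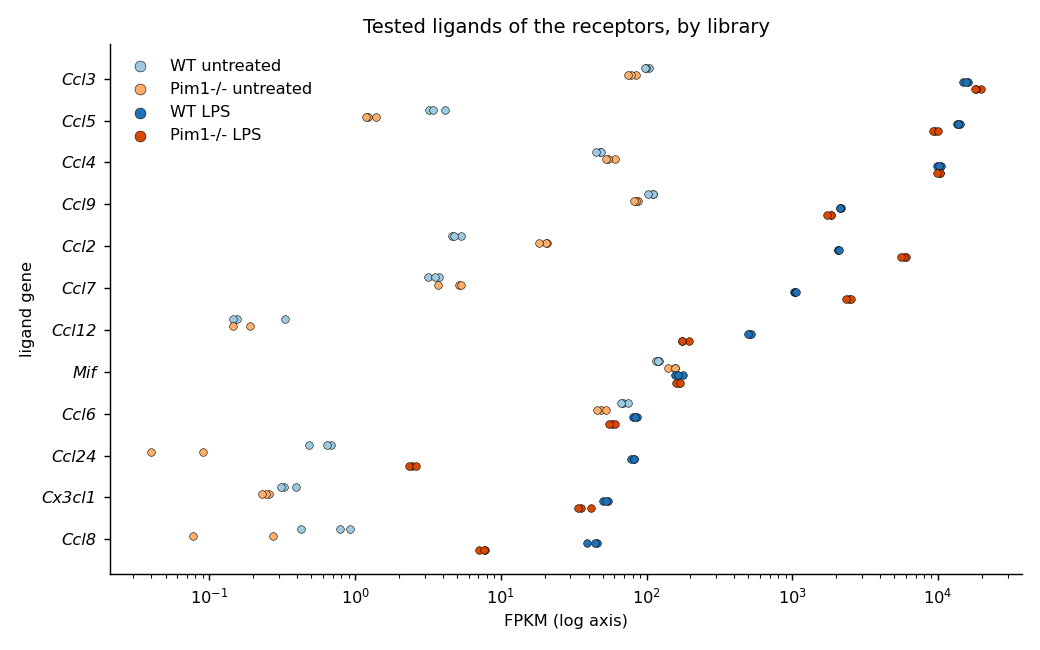
FPKM of the 12 tested ligands on a logarithmic x axis, a point for each library coloured by group, ordered on the y axis by the mean in LPS-treated WT cells, with 3 values listed at 0 left out. The LPS points lie far to the right of the untreated ones except for Mif and Ccl6, and Ccl24 and Ccl8 show LPS-treated Pim1-/- points well to the left of WT.

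Genes that carry or end the signal of these receptors were read from a list of 30, all of them tested. In untreated cells 1 of the 30 was called between genotypes, where 7.78% of all genes were, although 8 higher and 19 lower passed an FDR under 0.05, as 74.7% of all genes did. The called gene was Rgs1, a GTPase-activating protein that shuts off G proteins downstream of chemokine receptors, with a log2 fold change of 1.58 and means of 31.5 FPKM in WT and 96.7 FPKM in Pim1-/- BMDMs. After LPS 2 were called higher and 4 lower in Pim1-/- BMDMs, where 8.66% of all genes were called in either direction. The largest of these were Rgs2, another regulator of G protein signalling, at 34.2 against 8.71 FPKM, and Plcb3, a phospholipase, Pik3r6, a regulatory subunit of PI3K gamma, and Rgs16, with log2 fold changes of 1.86, −1.26, −1.20 and −1.18.

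With LPS, 12 of the 30 were called higher and 10 lower in WT, and 7 higher and 4 lower in Pim1-/- BMDMs, where 34.8% and 25% of all genes were called in either direction. Rgs1 rose to 289.7 FPKM in WT and 639.0 FPKM in Pim1-/- BMDMs, while Arrb1, beta-arrestin 1, which uncouples receptors from G proteins, fell from 39.0 to 3.18 FPKM in WT and from 27.2 to 3.65 FPKM in Pim1-/- BMDMs. Pik3r5, the other regulatory subunit of PI3K gamma, rose from 58.9 to 389.0 FPKM in WT and from 41.4 to 228.2 FPKM in Pim1-/- BMDMs. On log2(FPKM + 1) Rgs16 rose by 2.74 (WT) and 1.86 (Pim1-/-). Adrbk2, a kinase that marks active receptors for arrestin, rose by 2.35 (WT) and 2.04 (Pim1-/-). Mean Rgs16 went from 0.349 to 8.03 FPKM in WT and from 0.0987 to 3.01 FPKM in Pim1-/- BMDMs. Mean Adrbk2 went from 1.44 to 11.5 FPKM in WT and from 0.575 to 5.47 FPKM in Pim1-/- BMDMs. As ratios of means, neither rise was smaller in Pim1-/- BMDMs, so the order of the fitted rises depends on the pseudocount. The response was called different by genotype for 2 of the 30, against 6.67% of all genes. These were Rgs2, which had a log2 fold change with LPS of −2.32 in WT and −0.74 in Pim1-/- BMDMs, and Rgs14, with 1.25 in WT and 0.07 in Pim1-/- BMDMs, with differences of 1.58 and −1.18.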

How the data were processed

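RNA-seq of WT and Pim1-/- BMDMs, untreated or LPS-treated, gave 12 libraries, grouped by the labels, with 3 per group. Per the labels and methods, the authors made stranded mRNA libraries, used bcl2fastq 2.20.0.422, cutadapt 1.18 and TopHat2 2.0.13 and computed values with Cuffdiff 2.2.1. The genome is mm10 in the submitters' processing notes and rat rn5 in the methods, and the gene symbols are those of mouse. The annotation used is not given in the sources used here. Values as deposited by the authors carry no unit and were read as FPKM, since Cuffdiff writes FPKM and their decimals and sums fit it. Cuffdiff scales libraries and divides by transcript length, so FPKM shows relative, not absolute, RNA levels. No counts are given, so depth was estimated from low values of genes with 1 transcript longer than 1500 bases, for an assumed fragment length of 200 bases. It came to 20.9 to 46.0 fragments per FPKM and kilobase, and 73.3% to 86.1% of low values lay within 0.1 of a whole fragment. This step did not give whole reads for nearly all genes and no count test was run.

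Genes at 1 FPKM or more in at least 3 libraries (10581) were fitted as log2(FPKM + 1), pseudocount 1, with limma 3.58.1 in R 4.3.3, as 4 group means with a mean-variance trend and Benjamini-Hochberg adjustment. The fit was first tested on data with known changes. The thresholds are those of the study's methods for raised genes, used in both directions. Ccr3 and Ccr7, below the filter, were compared by a two-sided exact permutation test and by limma without the filter. Same-numbered libraries share a replicate number. Over 3646 genes at 10 FPKM or more in every library, their deviations from the group means were correlated. The values were 0.33 to 0.46 between untreated genotypes and 0.43 to 0.68 between LPS and no treatment in Pim1-/- BMDMs. They were 0.02 to 0.37 between genotypes after LPS and −0.10 to 0.19 between LPS and no treatment in WT. Libraries with different numbers were not correlated for reference and the labels name no pairs, so these values do not establish pairing. Text names Pim1, the 7 receptors, tested listed receptors and ligands, the 4 called signalling genes with the largest change per comparison, and the 3 genes most like each receptor. The receptors and all lists were chosen with earlier results of these data known. Promoter windows come from RefSeq GRCm38.p6 and spans of overlapping genes from GENCODE M21. Of the listed markers, Ly6g, Siglecf, Ighm and Trac were not used here. A further listed monocyte marker is not reported here and was left out of that list's sum. Alternatives covered the pseudocount (0.1), quantile and median-ratio scaling, 5 FPKM as the filter or none, only the groups compared, the replicate block, an FDR under 0.05 with no fold threshold, no trend and each library left out. Tables used pandas 2.3.3 and figures matplotlib 3.10.9, in Python 3.11.15.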

Additional observations from a re-analysis of the deposited data

Results flagged for a closer look

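The response of Cxcr4 to LPS differed between genotypes by 1.87 on the log2 scale (adjusted p = 4.8e-09, limma), as a fall of −5.87 in WT and −4.00 in Pim1-/- BMDMs. The response of Ccr1 differed by −1.15 (adjusted p = 2.3e-08, limma), with −0.37 in WT and −1.53 in Pim1-/- BMDMs. Both were picked out because the test of the difference between the genotypes' responses passed the thresholds. The Cxcr4 value rests on LPS-treated levels of 1.13 to 5.28 FPKM and the Ccr1 value on the untreated Pim1-/- level of 7.79 to 9.28 FPKM.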

How the results depend on the processing

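The counts of called receptors were the same under 100 of 104 alternatives. The exception was an FDR under 0.05 with no fold threshold, which called 5 of 5 receptors in each comparison, up from 2 between untreated genotypes, 1 after LPS, 4 for LPS in WT and 2 for the difference in response, where 74.7%, 77.4%, 89.3% and 62.9% of all genes passed it. Under settings with the same thresholds, all 495 fitted values of the 5 tested receptors kept their direction and their side of the thresholds. Of these, 300 were with a library left out. Many of the 495 could not change direction. Another filter, no trend, the replicate block or a separate fit per comparison leaves the group means, and so the fold changes, as they were. In those fits only the p-values could move. Leaving out a library of a group that a comparison does not use also fixes its fold change. The counts of called receptors share this limit. Leaving out each library gave 2 called between untreated genotypes, 1 after LPS, 4 for LPS in WT, 5 for LPS in Pim1-/- BMDMs and 2 for the difference. With the replicate block the counts were the same, 2, 1, 4, 5 and 2, and no receptor's call changed. Quantile normalization moved the median of all genes with LPS from 0.00 to −0.17 in WT and from −0.01 to −0.18 in Pim1-/- BMDMs, and the value of Ccr1 with LPS in WT from −0.37 to −0.04. Low values limit Ccr3, Ccr7 and the LPS-treated levels of Ccr2, Cx3cr1 and Cxcr4, whose log2 values depend on the pseudocount. For Ccr3 and Ccr7, limma without the filter gave the same directions as the means.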
